A study of Mus musculus with 9 samples.

Results

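The genes of the vascular endothelial growth factor (VEGF) system were followed across the cell labels of brain microvessels: 3 receptor genes (Kdr, Flt1 and Flt4), 2 neuropilins (Nrp1 and Nrp2) and 4 ligands (Vegfa, Vegfb, Vegfc and Pgf). They were taken by symbol from the gene table and make up 9 of its 46517 rows, of which 28386 held a read. The cells came from microvascular fragments of adult mouse brain, were put into 384-well plates by sorting, and were read with Smart-seq2, a method that covers whole transcripts of single cells. The 1235 cells, from 4 plates, carried 9 labels: 116 aEC, 787 capilEC, 45 vEC, 17 CP-EC, 54 PC, 41 aSMC, 29 vSMC, 9 FB and 137 MG. All groups share the tissue and preparation, and this label is the only difference named between them. The labels were spread unequally over the plates. Plate s169s held 223 of the 787 capilEC but 7 of the 116 aEC cells, and s483s 10 of the 17 CP-EC cells. No treatment is named, and strain, genotype, sex, exact age and number of animals are not given in the sources used here.

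Each label was deposited as 1 sample, so no difference between labels could be tested. Levels are summed reads per 1000000 reads of the label (CPM). The spread given is the range over plates with at least 5 cells of a label, and plates are not animals. The table held 285520064 reads, 100021 to 854836 a cell. The sources used here do not say whether any of these genes served in labelling the cells.

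The labels are not spelled out in the sources used here and were checked against marker genes. A list of 12 endothelial genes (Cldn5, Pecam1, Cdh5, Tek, Tie1 and others) summed to between 13394 and 20522 CPM in aEC, capilEC, vEC and CP-EC. For PC the sum was 4846 CPM, for vSMC 3743, for FB 2950, for aSMC 1614 and for MG 1094, with all 12 genes above 5 CPM in each of these except FB, where 11 were. Arterial endothelial markers summed to 1702 CPM in aEC against 214 in capilEC, but to 2463 in vSMC, 1786 in aSMC and 1713 in PC, where Mgp and Gja4 were also high. Venous markers summed to 3845 CPM in vEC against 466 in capilEC, and fenestrated-vessel markers to 5001 in CP-EC against at most 25.9 elsewhere. Pericyte markers led in PC (11175 CPM), smooth muscle markers in aSMC (20076) and vSMC (10862), microglial markers in MG (29879) and fibroblast markers in FB (9782). The pericyte sum was also 5211 CPM in vSMC and 4763 in FB, mostly from Vtn (4493 and 4760), against 340 in aSMC. In vSMC the pericyte genes Atp13a5, Kcnj8 and Abcc9 stood at 352, 239 and 127 CPM. The smooth muscle gene Cnn1 was at 0.636 CPM in vSMC and 814 in aSMC. The 8 astrocyte markers summed to 3298 CPM in FB, against at most 222 in any other label. This sum came from Gjb6 (1573 CPM), Slc1a3 (1151), Gja1 (423) and S100b (149), whereas Aqp4, Gfap and Slc1a2 had 0 reads in FB and Aldoc stood at 2.35 CPM. These sums are given again beside the results they touch.

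In the VEGF system, secreted ligands bind receptor tyrosine kinases on endothelial cells and drive their growth, survival and permeability. The receptor encoded by Kdr carries most of the signal of VEGF-A; the receptor encoded by Flt1 binds VEGF-A tightly, signals weakly and also exists as a soluble form that traps ligand; and the receptor encoded by Flt4 is best known from lymphatic vessels. Neuropilins are co-receptors that bind VEGFs as well as class 3 semaphorins. VEGF-B and placental growth factor (Pgf) bind the Flt1 receptor, VEGF-C binds the Flt4 and Kdr receptors, and in the brain VEGF-A is known mainly as a product of astrocytes, neurons and the choroid plexus epithelium.

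Of the receptor genes, Flt1 had the highest level per kilobase in every label but CP-EC. It lies on chromosome 5 (GRCm38 147561604 to 147726011, minus strand) and its exons join to 13504 bases. Its level was 2793 CPM in aEC, 2778 in capilEC, 1681 in CP-EC and 1295 in vEC, then 559 in PC, 421 in vSMC, 130 in MG, 96.1 in aSMC and 65.3 in FB. Per kilobase of exon, Flt1 stood at 207 CPM in aEC and 206 in capilEC, and the level of Kdr per kilobase was 35.5 and 74.0 in the same labels. The plates ran from 2385 to 3622 CPM in aEC and from 2041 to 3223 in capilEC, which overlap, while the vEC plates (999 to 1833) lay below both. Almost every endothelial cell held Flt1 reads, since 786 of 787 capilEC cells kept one after each cell was thinned to 100000 reads. The gene-level counts do not separate the soluble from the membrane form.

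Kdr had another order of levels. It lies on the same chromosome (GRCm38 chromosome 5, 75932827 to 75978458, minus strand; exons join to 9030 bases). Kdr was highest in CP-EC at 2374 CPM, followed by capilEC at 668, vEC at 556 and aEC at 321. In the other labels it was 69.8 CPM in vSMC, 40.3 in PC, 35.5 in aSMC, 19.6 in MG and 12.1 in FB. The plate ranges of capilEC (484 to 994), vEC (264 to 720) and aEC (31.7 to 439) overlap in part, although aEC was below capilEC on 4 of 4 plates. The lowest aEC plate held only 7 cells.

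Single cells showed how uneven Kdr was within a label. The median aEC cell held 47.2 CPM of Kdr with quartiles of 6.62 and 563, and the median capilEC cell 312 with quartiles of 11.0 and 966. Both labels thus joined cells with few Kdr reads and cells with high levels. Flt1 was more even, with a median of 2656 CPM (quartiles 1794 and 3711) in aEC and 2610 (1517 and 3822) in capilEC. In CP-EC every cell was high in Kdr: the lowest of 17 held 1057 CPM and the median 2034.

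**Figure D1:**
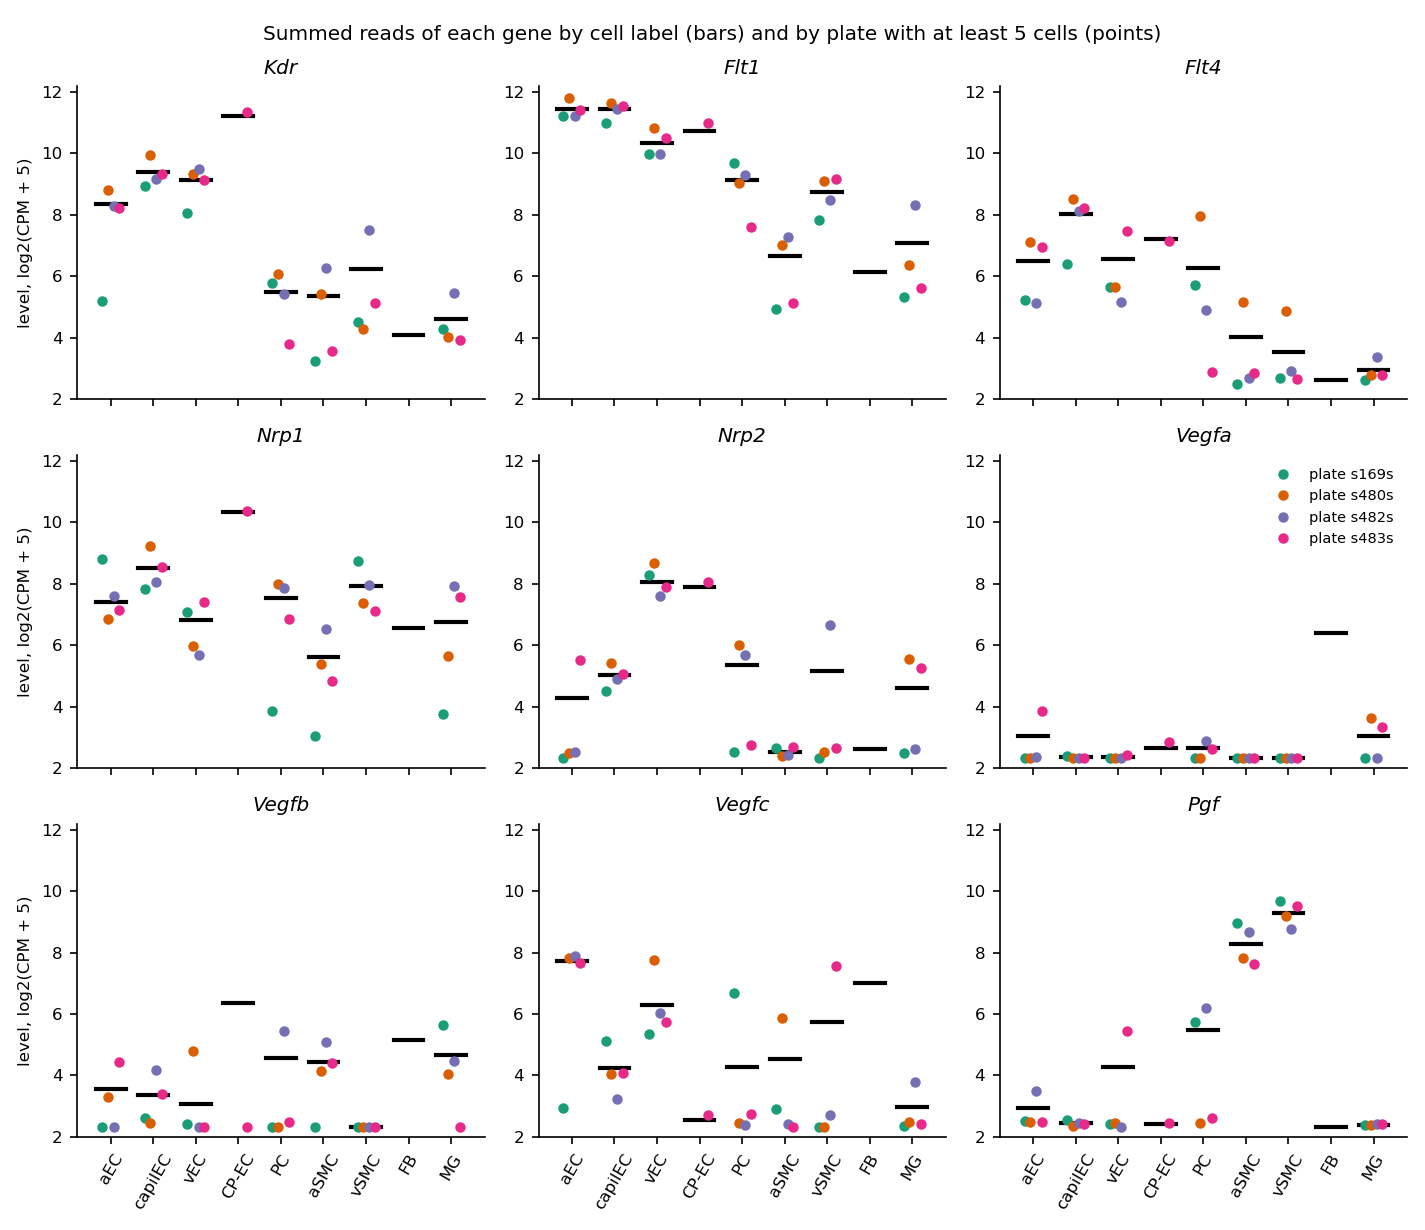
Level of each of the 9 genes as log2(CPM + 5) (y axis) in the 9 labels (x axis); bars are all cells of a label and points are plates with at least 5 cells. Flt1 is highest in aEC and capilEC (2793 and 2778 CPM), Kdr in CP-EC (2374 CPM), Nrp2 in vEC (263 CPM) and Pgf in vSMC and aSMC (625 and 305 CPM).

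Flt4, on chromosome 11 (GRCm38 49609263 to 49652739, plus strand), was highest in capilEC at 256 CPM, followed by CP-EC at 143, vEC at 88.8 and aEC at 85.6. It was 71.5 CPM in PC, where 72.5% of the reads came from 1 cell, and at most 11.3 CPM in the remaining labels. The capilEC plates ran from 79.9 to 362 CPM and overlap those of aEC (29.8 to 135) and vEC (31.0 to 174), but capilEC was the highest of the 3 on each of the 4 plates. Of the lymphatic genes, Prox1, the transcription factor that defines lymphatic endothelium, was at or below 0.675 CPM and Lyve1 at or below 4.05 CPM in every label. Pdpn, another lymphatic marker, was at or below 2.09 CPM in the 4 endothelial labels but 72.4 in FB and 19.2 in PC.

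The promoters of Kdr and Flt1, which are both high in the endothelial labels, of Nrp2, which led in vEC, and of Pgf, which led in the smooth muscle labels, are shown for comparison. Each runs 5′ to 3′ on the gene's strand from 250 bases before to 50 bases after the RefSeq start (GRCm38.p6), at chr5:75978406-75978705 (minus) for Kdr, chr5:147725962-147726261 (minus) for Flt1, chr1:62703067-62703366 (plus) for Nrp2 and chr12:85177264-85177563 (minus) for the first of 2 Pgf starts. Capitals mark GGGCGG (the GC box), AGGAA (a core of ETS factor sites), TATAAA and ACGTG (a core of hypoxia response elements), searched on both strands, so that CCGCCC and TTCCT are the same motifs on the other strand.
Kdr: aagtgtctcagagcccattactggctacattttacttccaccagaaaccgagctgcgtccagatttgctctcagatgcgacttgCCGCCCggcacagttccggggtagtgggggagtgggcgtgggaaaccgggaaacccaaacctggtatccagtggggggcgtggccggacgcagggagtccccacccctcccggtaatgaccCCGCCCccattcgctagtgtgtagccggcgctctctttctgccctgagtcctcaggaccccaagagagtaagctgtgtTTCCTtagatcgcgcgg
Flt1: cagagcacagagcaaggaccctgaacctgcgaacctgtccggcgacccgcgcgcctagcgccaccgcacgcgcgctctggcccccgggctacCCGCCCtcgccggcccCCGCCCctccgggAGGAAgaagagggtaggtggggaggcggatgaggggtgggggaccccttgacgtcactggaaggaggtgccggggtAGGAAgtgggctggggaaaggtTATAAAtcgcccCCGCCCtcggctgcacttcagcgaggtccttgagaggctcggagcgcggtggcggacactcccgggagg
Nrp2: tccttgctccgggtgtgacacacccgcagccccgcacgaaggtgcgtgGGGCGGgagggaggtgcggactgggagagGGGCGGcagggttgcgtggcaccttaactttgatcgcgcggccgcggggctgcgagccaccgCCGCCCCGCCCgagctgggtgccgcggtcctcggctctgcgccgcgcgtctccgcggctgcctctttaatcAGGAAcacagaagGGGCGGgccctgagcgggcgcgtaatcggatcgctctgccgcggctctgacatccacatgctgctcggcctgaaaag
Pgf: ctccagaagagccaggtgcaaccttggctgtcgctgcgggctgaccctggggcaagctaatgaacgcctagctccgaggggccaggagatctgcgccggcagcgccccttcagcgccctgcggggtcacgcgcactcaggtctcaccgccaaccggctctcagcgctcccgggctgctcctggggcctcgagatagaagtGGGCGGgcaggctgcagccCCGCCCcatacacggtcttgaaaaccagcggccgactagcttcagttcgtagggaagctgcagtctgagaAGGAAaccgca

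GC boxes numbered 2 in the Kdr window, 3 in Flt1, 5 in Nrp2 (of which a pair overlap) and 2 in Pgf, and 35.7% of all 32851 promoters of this length hold at least 1. AGGAA was found once in Kdr, Nrp2 and Pgf and at 2 places in Flt1, and 66.7% of all promoters hold it. Only the Flt1 window of these 4 holds TATAAA, which begins 31 bases before the start; 13.6% of all promoters hold it. ACGTG is in none of the 4 windows, against 19.6% of all promoters. The share of G and C was 60.7% in Kdr, 66.0% in Pgf and 70.7% in both Flt1 and Nrp2, against a median of 52.7% over all promoters. These matches are letters in a window and describe no binding.

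Between the endothelial labels, the balance of Kdr to Flt1 differed more steadily than either level. The ratio of Kdr to Flt1 per kilobase was 0.172 in aEC, 0.360 in capilEC, 0.642 in vEC and 2.11 in CP-EC. On each of the 4 plates vEC was above capilEC and capilEC above aEC, with plate ranges of 0.0199 to 0.192 in aEC, 0.308 to 0.461 in capilEC and 0.394 to 1.07 in vEC. The aEC plates did not overlap those of the other labels, whereas those of capilEC and vEC did. CP-EC, with 1 plate of at least 5 cells, had a ratio of 1.93 there. CP-EC was the 1 label of the 9 in which Kdr exceeded Flt1 per kilobase over all cells.

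Nrp1, on chromosome 8 (GRCm38 128358604 to 128503363, plus strand; the microRNA gene Mir1903 overlaps 80 of its exon bases), was found in every label. It was highest in CP-EC at 1289 CPM and in capilEC at 361, and lower in aEC at 165 and vEC at 108. In the other labels it was 237 CPM in vSMC, 182 in PC, 102 in MG, 88.8 in FB and 43.9 in aSMC. The plate ranges of all neighbouring labels that have them overlap in this order. In FB, 96.9% of the Nrp1 reads came from 1 of the 9 cells.

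Nrp2, on chromosome 1 (GRCm38 62703285 to 62818695, plus strand), had levels of 263 CPM in vEC and 235 in CP-EC. Those in capilEC (27.4) and aEC (14.6) were far lower. It was 35.8 CPM in PC, 30.5 in vSMC, 19.4 in MG, 1.17 in FB and 0.688 in aSMC. The vEC plates ran from 191 to 406 CPM and lay above all 4 capilEC plates (17.9 to 37.9) and all 4 aEC plates (0 to 41.0). After thinning, 73.3% of vEC cells held a Nrp2 read (95% exact Clopper-Pearson interval 58.1 to 85.4%; 80% on all reads), against 11.3% of capilEC cells (9.18 to 13.7%; 15.6%) and 8.62% of aEC cells (4.21 to 15.3%; 16.4%). In MG the share was 8.03% (4.08 to 13.9%; 21.2%), and its interval overlaps those of capilEC and aEC. These intervals take cells as the units, so their overlap does not decide whether the labels differ. Levels in the other labels rest on few cells, with 97.4% of the vSMC reads, 67.9% of the MG reads and 62.9% of the PC reads in 1 cell each.

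The balance of the 2 neuropilins followed from this. Per kilobase, Nrp2 reads were 2.01 times those of Nrp1 in vEC, with 1.18 to 5.87 over plates. The ratio was 0.0731 in aEC, 0.0625 in capilEC and 0.150 in CP-EC, so vEC was the 1 label of the 9 with more Nrp2 than Nrp1. The capilEC plates ran from 0.0526 to 0.0793. In aEC the ratio was 0.00403 on s480s, 0.00339 on s482s and 0.250 on s483s, which held 443 of the 456 Nrp2 reads.

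**Figure D2:**
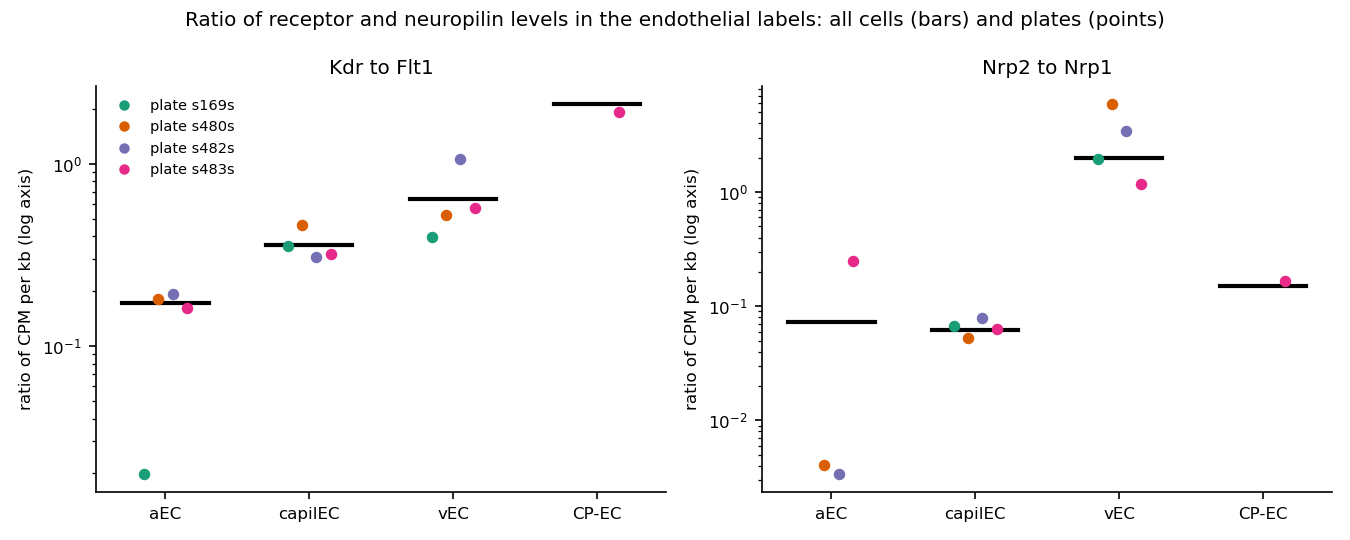
Ratio of Kdr to Flt1 (left) and of Nrp2 to Nrp1 (right), both of CPM per kilobase of exon, on log axes in the 4 endothelial labels; bars are all cells and points are plates with at least 5 cells. Kdr to Flt1 goes from 0.172 in aEC to 2.11 in CP-EC, and Nrp2 to Nrp1 is 2.01 in vEC; the aEC plate s169s had 0 Nrp2 reads and has no point on the right.

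For the comparisons between groups, a gene was counted as at least 4-fold apart by 3 conditions. In the higher group it had 50 CPM and a read in 50% of cells on all reads, without thinning. Its difference was at least 2 on the log2(CPM + 5) scale. The mean of the 3 endothelial labels (aEC, capilEC, vEC) was set against the mean of the 3 mural labels (PC, aSMC, vSMC). Kdr was higher in the endothelial mean (515 against 48.5 CPM, log2 difference 3.28, plates 2.42 to 4.64). Flt1 was also higher (2289 against 359, 2.66, plates 2.33 to 3.16), and so was Flt4 (143 against 29.8, 2.09, plates 0.82 to 4.86). These were 3 of the 4 members that met the minimums. Of 2398 genes, 9.47% were 4-fold higher in the endothelial mean, 5.96% in the mural mean and 15.4% either way. Flt4 was no longer 4-fold apart without plate s482s, without plate s483s or with a pseudocount of 20 CPM. It met the minimum share on all reads, whereas after thinning it was read in 37.9% of aEC, 45.0% of capilEC and 35.6% of vEC cells. The fourth, Nrp1, stood at 211 against 154 CPM (0.44, plates −0.16 to 1.27). Over the 8 members above 5 CPM in either group the median log2 difference was 1.83, against 0.03 over all 12714 such genes.

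Among the genes around these receptors, those that were higher in the endothelial mean were Robo4, an endothelial guidance receptor (485 against 31.6 CPM, 3.74), Sema3c, a semaphorin that binds neuropilins (562 against 77.6, 2.78), Ptprb, the phosphatase VE-PTP (1462 against 247, 2.54), and Nos3, the endothelial nitric oxide synthase (450 against 73.4, 2.54). They were 4 of 61 pathway genes, and 11 of the 61 met the minimums. None of the 61 was higher in the mural mean.

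Reads of the receptors in non-endothelial labels were set against the endothelial markers of the same labels. Per 1000 reads of the 12 endothelial markers, Flt1 had 163 reads in aEC, 135 in capilEC, 125 in CP-EC and 82.1 in vEC, and 119 in MG, 115 in PC and 113 in vSMC. The values of MG, PC and vSMC thus lay within the span of the endothelial labels over all cells, although the MG plates ran from 40.1 to 156. Those of aSMC (59.5) and FB (22.1) lay below it. In both, 1 gene weighed heavily in the marker sum. Esam stood at 651 of 1614 CPM in aSMC, and Itm2a at 1588 of 2950 CPM in FB. How far these values depend on the choice of markers was not tested. Kdr had 177 reads in CP-EC, 35.2 in vEC, 32.6 in capilEC and 18.8 in aEC, against 22.0 in aSMC, 18.6 in vSMC, 17.9 in MG, 8.31 in PC and 4.11 in FB. Nrp1 had 17.6 in capilEC (plates 9.95 to 31.7), against 37.6 in PC (plates 1.38 to 50.7), 63.4 in vSMC (31.2 to 206) and 93.3 in MG (9.73 to 296). The plate ranges of all 3 overlap that of capilEC, and on plate s169s the Nrp1 level was only 9.34 CPM in PC and 8.49 in MG.

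**Figure D3:**
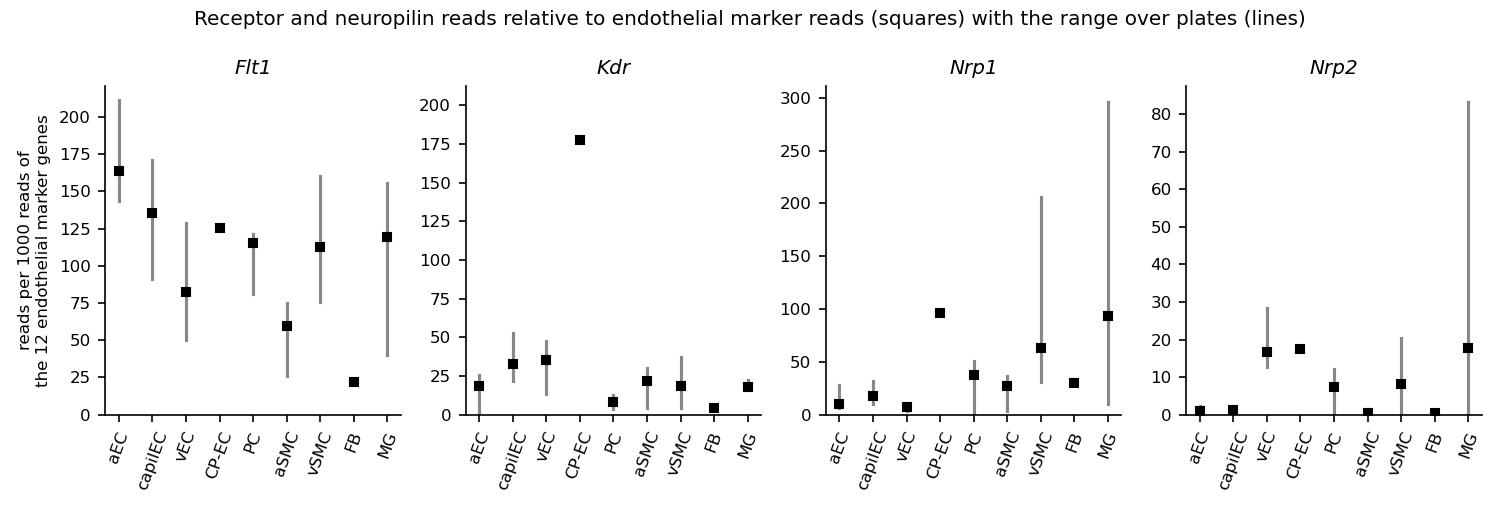
Reads of Flt1, Kdr, Nrp1 and Nrp2 per 1000 reads of the 12 endothelial markers (y axes, each on its own scale) in the 9 labels (x axis); squares are all cells and lines the range over plates with at least 5 cells. Flt1 is at 115 in PC and 119 in MG, near the 135 of capilEC, while Nrp1 is at 37.6 in PC and 93.3 in MG against 17.6 in capilEC, with plate ranges that overlap.

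Levels were also taken without cells over the cut for markers of another class, called mixed cells here. The cut used the endothelial list itself, so lower Flt1 and Kdr levels in the cells left follow in part from it. The list sum of the median PC cell was 2150 CPM. Whether the cells left out were mixed was not tested. Of PC, 18 of 54 cells were left, of vSMC 16 of 29, of aSMC 32 of 41 and of MG 125 of 137. In the remaining cells Flt1 stood at 54.8 CPM for PC, 41.1 for vSMC, 30.3 for aSMC and 37.2 for MG, and Kdr was between 9.13 and 15.8 CPM in these 4 labels. Nrp1 was 269 CPM in PC, 208 in vSMC, 85.4 in MG and 10.1 in aSMC. These Nrp1 sums rest on a minority of cells. Over all cells, at least 10 Nrp1 reads were held by 15 of 54 PC, 10 of 29 vSMC and 22 of 137 MG cells. The median cell held 9.78 CPM in PC, 7.29 in vSMC and 4.06 in MG, against 12.5 in capilEC. Low Flt1 reads were spread over nearly all cells, since 92.7% of MG cells (95% exact interval 87.0 to 96.4%; 99.3% on all reads) kept one after thinning, at a median of 32.1 CPM per cell on all reads. For Kdr the MG share was 51.8% (43.1 to 60.4%; 79.6%).

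Between aEC and capilEC, 0 of the 4 members that met the minimums were 4-fold apart, where 1.32% of 2118 genes were (0.803% higher in aEC and 0.519% higher in capilEC). Flt1 stood at nearly equal levels, with a log2 difference of 0.01 (plates −0.21 to 0.22). Kdr was lower in aEC (−1.05, plates −3.74 to −0.88), as were Flt4 (−1.52, plates −2.99 to −1.19) and Nrp1 (−1.11, plates −2.37 to 0.98), all by less than 4-fold. Kdr and Flt4 had the same direction on 4 of 4 plates and Nrp1 on 3. None of the 61 pathway genes was 4-fold apart in this comparison. Genes of the dissociation response stood at a sum of 6341 CPM in aEC against 3016 in capilEC, and their part in these values was not tested.

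Nrp2 was the 1 member 4-fold higher in vEC than in capilEC (log2 difference 3.05, plates 2.71 to 3.78). It was 1 of 5 members that met the minimums. Of 2615 genes, 1.34% were 4-fold higher in vEC, 0.956% in capilEC and 2.29% in either direction. The other receptor genes were lower in vEC but not by 4-fold. The difference was −1.69 for Nrp1 (plates −3.27 to −0.76), −1.47 for Flt4 (plates −2.94 to −0.73) and −1.10 for Flt1 (plates −1.45 to −0.81), each negative on 4 of 4 plates. Without plate s483s, or when the top cell of each gene was dropped, Flt4 and Nrp1 also passed 4-fold. For Kdr it was −0.26 (plates −0.86 to 0.33). Of the pathway genes none was 4-fold apart. The dissociation-response sum was 6956 CPM in vEC against 3016 in capilEC, and its part was not tested.

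Between aEC and vEC, Nrp2 was again the 1 member 4-fold apart, lower in aEC with a log2 difference of −3.78 (plates −6.21 to −2.39), where 1.96% of 2758 genes were 4-fold higher in vEC, 2.21% in aEC and 4.17% in either direction. This comparison shares its vEC cells with the last one. Flt1 was 1.11 higher in aEC (plates 0.90 to 1.25). For Kdr the difference was −0.78 (plates −2.87 to −0.53), and both kept their direction on 4 of 4 plates. None of the pathway genes was 4-fold apart here either.

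The CP-EC cells, few in number, had the highest Kdr and Nrp1 levels of the 9 labels, while Nrp2 was higher in vEC (263 against 235 CPM). Against capilEC, Kdr was 1.82 higher on the log2 scale, Nrp1 1.82 and Nrp2 2.89, while the differences of Flt1 and Flt4 were −0.72 and −0.81. None of the 4 members that met the minimums reached 4-fold, where 11.9% of 2149 genes did (3.12% higher in CP-EC and 8.79% higher in capilEC). Nrp2 was read in 7 of the 17 cells and so failed the minimum share. Without plate s480s, Kdr was 4-fold apart, and without plate s169s, Nrp2 was. None of the 61 pathway genes was counted as 4-fold apart. Over all 11565 genes above 5 CPM in either label the median log2 difference was −0.38. The dissociation-response sum was 5428 CPM in CP-EC against 3016 in capilEC, and its part was not tested.

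The 10 CP-EC cells of plate s483s and the 7 of the other plates gave 2637 and 2019 CPM for Kdr, 1314 and 1256 for Nrp1, and 263 and 197 for Nrp2. Flt1 was 2043 and 1191 CPM. All 17 cells exceeded the upper quartile of capilEC for Kdr (966 CPM), and 10 exceeded it for Nrp1 (512 CPM). Esm1, an endothelial proteoglycan gene known as a VEGF target, was read in 7 of 17 cells and summed to 990 CPM, against at most 0.319 in the other labels. Esm1 is also in the fenestrated marker list used to check this label. Microglial markers summed to 699 CPM in CP-EC against 189 to 284 in the other endothelial labels, and 16 of 17 cells were left without cells of mixed markers. In those 16, Kdr was 2312 CPM and Nrp1 1294.

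**Figure D4:**
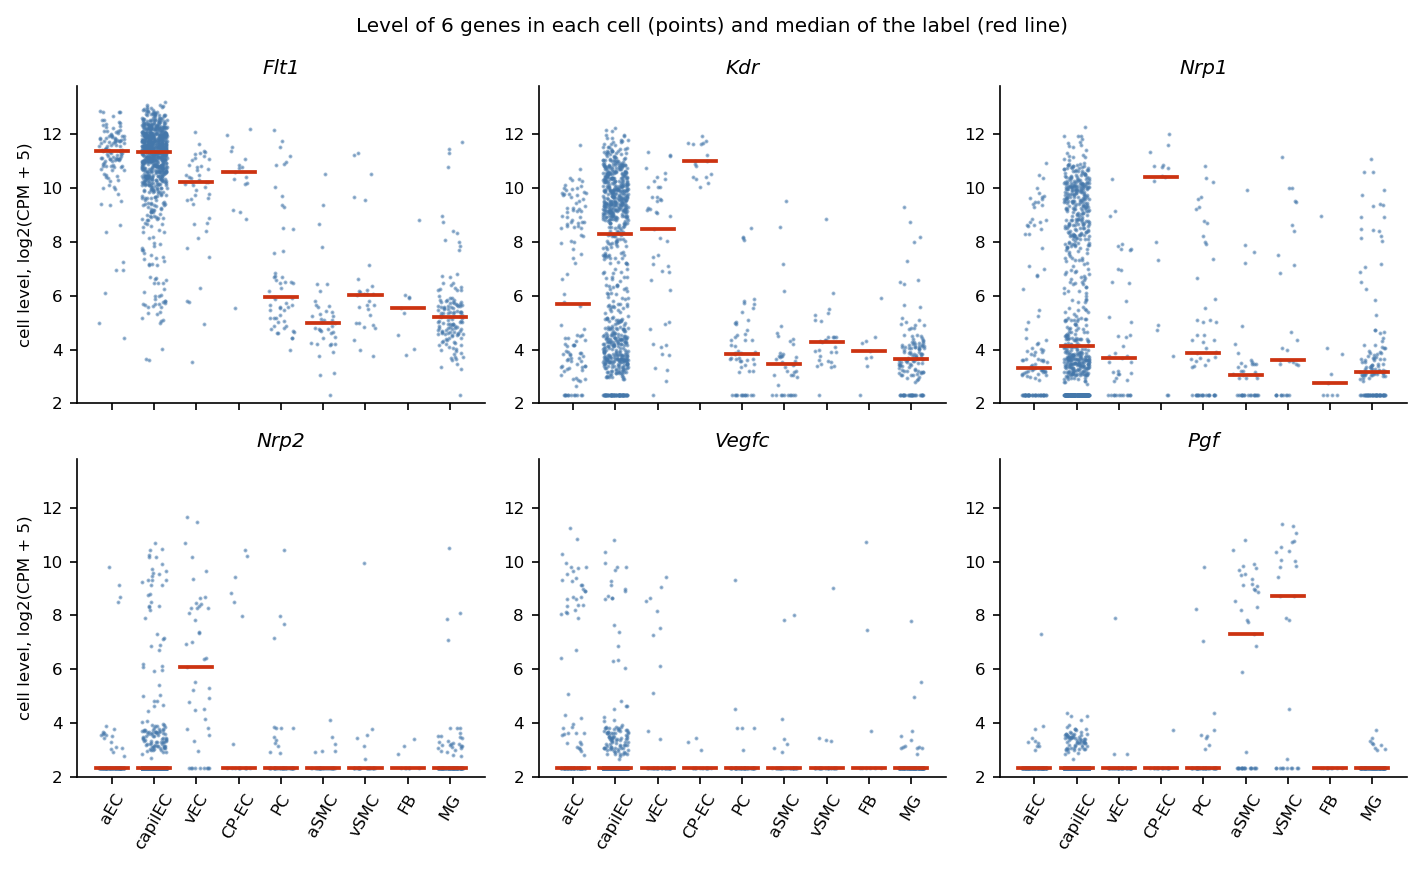
Level of 6 of the genes in every cell as log2(CPM + 5) (y axis) by label (x axis); each point is 1 cell and red lines are medians. All 17 CP-EC cells lie at or above 1057 CPM of Kdr, capilEC cells spread from 0 to 4878 CPM of Kdr, and Pgf cells are found mainly in aSMC and vSMC.

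Within capilEC, cells were ordered by a score of 10 arterial-side against 10 venous-side genes, none of them a member, and divided into ranges of 263, 262 and 262 cells; 16 cells tied at a boundary. These ranges divide a score and are no cell types. From the arterial side over the middle to the venous side, Flt1 was 3017, 2865 and 2473 CPM and Kdr 552, 686 and 655. The ratio of Kdr to Flt1 per kilobase was 0.274, 0.358 and 0.396, and it was higher at the venous than at the arterial side on plates s169s, s482s and s483s but not on s480s (0.445 and 0.431). Nrp2 was 9.13, 18.7 and 50.5 CPM, and on s483s it was instead 26.9, 34.9 and 18.6. On s169s Flt1 changed little, at 2128, 2028 and 2101 CPM. Over all cells Flt4 was almost level at 238, 236 and 239 CPM, but the plates differed in order. It was 278, 386 and 355 on s480s, and 318, 287 and 255 on s483s. Nrp1 was highest in the middle at 308, 434 and 322. This held on s169s, s480s and s483s, while on s482s the middle was lowest (298, 247 and 299).

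**Figure D5:**
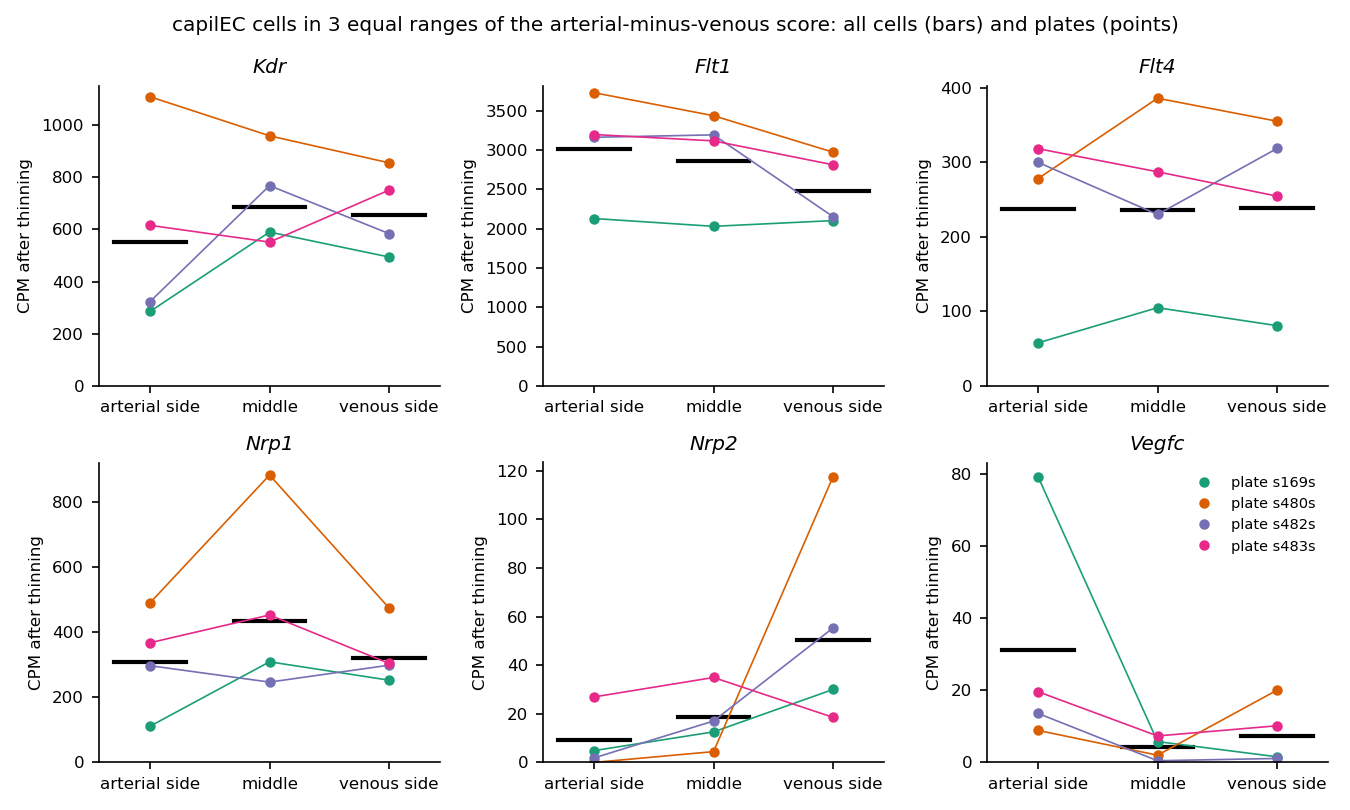
Level of 6 genes in CPM after thinning (y axes, from 0) over 3 ranges of the arterial-minus-venous score in capilEC cells (x axis); bars are all cells of a range and coloured points with lines are the 4 plates. Flt1 goes from 3017 to 2473 CPM and Nrp2 from 9.13 to 50.5 CPM between the arterial and the venous side, with plate s483s going the other way for Nrp2.

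Vegfc was the ligand gene with the highest endothelial level. It lies on chromosome 8 (GRCm38 54077606 to 54187096, plus strand). Its level was 207 CPM in aEC, 124 in FB, 74.2 in vEC, 48.5 in vSMC, 18.4 in aSMC, 14.2 in PC, 13.9 in capilEC, 2.76 in MG and 0.907 in CP-EC. On 3 plates aEC held 221, 230 and 200 CPM, above every capilEC plate (4.38 to 29.7); on the plate with 7 aEC cells it held 2.64. After thinning, 37.9% of aEC cells had a Vegfc read (95% exact interval 29.1 to 47.4%; 43.1% on all reads), against 20% in vEC (9.58 to 34.6%; 24.4%), 8.39% in capilEC (6.55 to 10.5%; 13.6%) and 5.84% in MG (2.55 to 11.2%; 9.49%). The capilEC share thus lay within the interval of MG.

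The remaining Vegfc levels rest on single cells. In vSMC 99.0% of the reads and in PC 96.1% came from 1 cell, and in FB 1 of 9 cells held 70%. Without the 8 FB cells over the cut for markers of another class, only 1 FB cell was left, and it held 0 Vegfc reads. Within capilEC the arterial side held 31.2 CPM against 4.27 in the middle and 7.37 at the venous side, with 79.1 CPM on plate s169s behind the first value. Genes that act with Vegfc were scarce: Ccbe1 and Adamts3, which serve its maturation, were at or below 0.763 CPM in every label, and Figf, the older symbol of Vegfd, was at or below 16.0 CPM.

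Pgf was highest in the smooth muscle labels. It lies on chromosome 12 (GRCm38 85166635 to 85177790, minus strand). Its level was 625 CPM in vSMC and 305 in aSMC, then 40.2 in PC, 14.3 in vEC and at most 2.65 in the other 5 labels, with 0 reads in FB (a limit of 1.17 CPM from 3 reads). The vSMC plates (436 to 815) and aSMC plates (191 to 493) overlap each other and lie above all PC plates (0.438 to 68.2). After thinning, 62.1% of vSMC cells (95% exact interval 42.3 to 79.3%; 65.5% on all reads) and 58.5% of aSMC cells (42.1 to 73.7%; 58.5%) held a read, against 14.8% of PC cells (6.62 to 27.1%; 18.5%) and 4.32% of capilEC cells (3.01 to 5.98%; 8.64%). The vEC level came to 99.0% from 1 cell and the PC level to 69.5%. Without mixed cells Pgf was 662 CPM in vSMC and 310 in aSMC, but 1.18 in PC.

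Pgf was 5.8 CPM in the endothelial mean and 323 in the mural mean, a log2 difference of −4.93 as endothelial minus mural (plates −6.35 to −4.11). It was read in too few PC cells for the minimum share. Its receptor gene Flt1 was thus highest in the endothelial labels, and Pgf in the smooth muscle labels. In aSMC against PC, Pgf was higher by 2.78 (plates 2.48 to 5.4) and Flt1 lower, at −2.48 (plates −4.75 to −2.00). They were 2 of 3 members that met the minimums, where 13.0% of 2337 genes were 4-fold apart (6.42% higher in aSMC and 6.59% higher in PC). Without mixed cells Flt1 was no longer 4-fold apart (log2 difference −0.76), while Nrp1 was, at 10.1 CPM in aSMC against 269 in PC.

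Beside this comparison stand the endothelial marker sums of 1614 CPM in aSMC and 4846 in PC. A list of genes that respond to cell dissociation summed to 18409 CPM in aSMC and 5664 in PC, and its part in the result was not tested. The pathway genes Spry2 and Sema3c were 4-fold higher in PC than in aSMC. Spry2, a feedback inhibitor of receptor tyrosine kinases, was at 52.7 against 2.75 CPM (−2.90 as aSMC minus PC), and Sema3c at 128 against 24.0 (−2.20).

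Between vSMC and aSMC, Nrp1 (237 against 43.9 CPM, 2.31, plates 1.41 to 5.72) and Flt1 (421 against 96.1, 2.08, plates 1.21 to 4.04) were 4-fold higher in vSMC. They were 2 of 4 members that met the minimums. Of 2339 genes, 5.39% were 4-fold higher in vSMC, 4.32% in aSMC and 9.71% either way. Pgf was 1.02 higher in vSMC (plates 0.11 to 1.90). The endothelial genes Cdh5, the junction protein VE-cadherin (129 against 16.2 CPM, 2.67), and Ptprb (395 against 72.1, 2.37) were the pathway genes counted as 4-fold higher in vSMC. Endothelial markers summed to 3743 CPM in vSMC and 1614 in aSMC, pericyte markers to 5211 and 340, and the dissociation list to 3770 and 18409. Without mixed cells Flt1 was not 4-fold apart, at 41.1 and 30.3 CPM, whereas Nrp1 was, at 208 and 10.1. Without plate s169s Nrp1 was not 4-fold apart, and Flt1 was not without plate s483s or with either other scaling.

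Vegfa, the main ligand of the Kdr receptor, was close to 0 in the vessel labels. It lies on chromosome 17 (GRCm38 46016993 to 46032369, minus strand). It was 79.4 CPM in FB, 3.28 in MG, 3.26 in aEC, 1.31 in PC, 1.21 in CP-EC, 0.142 in vEC and 0.0925 in capilEC, with 0 reads in aSMC and vSMC. In aEC 97.1% and in MG 86.9% of its reads came from 1 cell. In FB it was read in 3 of 9 cells, at 455, 250 and 33.8 CPM. The astrocyte marker sums of these cells were 6031, 4033 and 58.6 CPM, and the other 6 cells, with 1264 to 5191 CPM of astrocyte markers, held no Vegfa. As given above, Aqp4, Gfap and Slc1a2 had 0 reads in FB. By the cut of 10% of another class's median marker level, 8 of the 9 FB cells were left out. The mural marker sum of FB, 6028.5 CPM, came mostly from Vtn (4760), Cd248 (719) and Pdgfrb (510). The mural genes Rgs5 and Notch3 stood at only 32.1 and 2.74 CPM in FB. Whether the 8 cells were mixed was not tested. The 1 left held 33.8 CPM of Vegfa and 0 of Vegfc and Vegfb.

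Vegfb, which lies on chromosome 19 (GRCm38 6982473 to 6987651, minus strand), was low and patchy. It was 76.4 CPM in CP-EC and 30.5 in FB, each from 1 cell, and 20.3 in MG, 19.0 in PC, 16.5 in aSMC, 6.90 in aEC, 5.25 in capilEC and 3.47 in vEC, with 0 reads in vSMC (a limit of 0.477 CPM). After thinning it was read in 2.80% of capilEC cells and 7.30% of MG cells.

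MG, set against the endothelial mean, had less of all 3 receptor genes. The log2 difference was −4.40 for Kdr (19.6 against 515 CPM, plates −5.41 to −3.63), −4.28 for Flt4 (2.64 against 143, plates −4.88 to −3.23) and −4.08 for Flt1 (130 against 2289, plates −5.61 to −2.71). They were 3 of 4 members that met the minimums. Of 2498 genes, 18.7% were 4-fold higher in the endothelial mean, 11.0% in MG and 29.7% either way. For Nrp1 it was −1.01, with plates from −4.33 to 0.51. Ptprb (−4.63), Cdh5 (−4.30), Epas1, which encodes the hypoxia-inducible factor HIF-2 alpha (−4.27), and Nos3 (−3.95) led the 6 pathway genes counted as 4-fold higher in the endothelial mean. None was counted as 4-fold higher in MG. The dissociation list summed to 28172 CPM in MG and 3016 to 6956 in aEC, capilEC and vEC, and its part was not tested.

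The genes whose profile over the 9 labels was closest in shape to each member were found by Pearson's r of log2(CPM + 5) among 3210 or 3211 genes. This value does not compare the height of the levels or the size of their differences. Snw1, the closest to Nrp2, ran only from 56.7 CPM in FB to 162 in vEC, where Nrp2 ran from 0.688 in aSMC to 263 in vEC. Each named gene was picked from all these genes for its high r, and none was tested. For Flt1 they were Adgrl4 and Afap1l1 (r = 0.99 each) and Tek (0.98), and for Kdr Tmem88 and Bmpr2 (0.97 each) and Myct1 (0.96). Flt4 was most like Ctla2a (0.96), Prkd2 and Tie1 (0.95 each), and Pgf most like Mapre2 (0.97), Pde3a and Dgkb (0.96 each). For Vegfa they were Cyp1b1 (0.98), Asgr1 and Pdgfra (0.97 each), each of which was highest in FB. Nrp1 (Thoc2 0.94, Sbds 0.92, Selk 0.91), Nrp2 (Snw1, Glrx3 and Top1), Vegfc (Arhgap20, Maob and Emc10) and Vegfb (Coq10b, Mrfap1 and Eif2ak1) had closest r values of 0.94, 0.90, 0.87 and 0.87. Between members, Flt1 and Flt4 (0.91), Kdr and Flt1 (0.88) and Kdr and Flt4 (0.86) were the most alike. These values describe 9 summed libraries that differ in depth and cell number.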

How the data were processed

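Smart-seq2 libraries of single cells from adult mouse brain microvascular fragments were measured. The authors deposited unnormalized counts of reads for each gene in each cell, and a label for each cell. The submitters' processing notes name featureCounts, Subread 1.4.6-p5 and SAMtools 1.16.1, and both GRCm39 and GRCm38. Smart-seq2 covers whole transcripts without molecular identifiers. The role of each build, the aligner and the way cells were labelled are not given in the sources used here. All 1235 cells were kept (100021 to 854836 reads each), 0 columns were left out, 0 row names named no gene, 0 cells lacked a label and 0 cells repeated another cell's counts. No doublet caller was run.

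Counts were summed per label and scaled to reads per 1000000 (CPM). For a comparison that joined labels, the mean CPM of its 3 labels was used. Differences are on log2(CPM + 5). Each label was 1 deposited sample and no animal was named, so no test was run. The 95% intervals were exact Poisson for sums and exact Clopper-Pearson for shares of cells. The Poisson intervals cover counting error only, and PCR reads are not independent molecules. The Clopper-Pearson intervals take cells as the units, and neither kind covers the spread between animals. Shares given with intervals were taken after thinning each cell to 100000 reads. The minimum share of cells in the counting rule used all reads, without thinning. Plates with at least 5 cells of a label give the spread, and they are not replicates of animals. Levels of different genes were compared per kilobase of joined exon length (GENCODE M21, GRCm38). Promoters came from RefSeq (GRCm38.p6), which matched 9 of 9 genes.

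All 9 genes were named. The 3 genes with the highest Pearson's r to each over the labels were named, and, of 61 genes in 5 pathway lists, those at least 4-fold apart, up to 4 per direction. Other genes of these lists were named for their role. The members, lists and this rule were chosen with earlier results of these data known. The counting rule was tested on simulated data. The alternatives were TMM factors (edgeR 4.0.16), size factors (DESeq2 1.42.0), equal weight per cell, a pseudocount of 1 or 20 CPM, dropping the minimum CPM or the minimum share, and the removal of each plate, of the cell with the largest count, or of cells with markers of another class (over 10% of that class's own median level).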

Additional observations from a re-analysis of the deposited data

How the results depend on the processing

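With the main setting, the members at least 4-fold apart numbered 3 (endothelial against mural mean), 0 (aEC against capilEC), 1 (vEC against capilEC), 1 (aEC against vEC), 0 (CP-EC against capilEC), 2 (aSMC against PC), 2 (vSMC against aSMC) and 3 (MG against the endothelial mean). Across the 13 alternatives, 15 of 104 such counts moved by more than 1.5 times, and the cause was not tested except where named. This compares numbers of members and not their names. The loss of Flt4 from the endothelial against mural count is therefore not among the 15. Nor is the exchange of Flt1 for Nrp1 in aSMC against PC without mixed cells. With no minimum share of cells the count was 1 for aEC against capilEC (Vegfc), 2 for vEC against capilEC (Nrp2 and Vegfc), 2 for CP-EC against capilEC (Nrp2 and Vegfb) and 5 for MG against the endothelial mean (Nrp2 and Vegfc added), which follows from admitting genes read in few cells. For vEC against capilEC the count was 3 (Flt4, Nrp1 and Nrp2) without plate s483s and 3, with the same names, without the cell with the largest count. For CP-EC against capilEC it was 1 without plate s169s (Nrp2) and 1 without plate s480s (Kdr). For vSMC against aSMC it was 1 (Nrp1) with TMM factors, DESeq2 size factors, equal weight per cell, a pseudocount of 20 CPM, without cells with markers of another class and without plate s483s, and 1 (Flt1) without plate s169s. Of 936 values of single members under the alternatives, 885 kept their sign, and 0 of those at least 4-fold apart reversed. No paired analysis was possible because each label was 1 deposited sample and plates are not replicates with numbers in the labels. The 2 scaling methods moved the median over all genes by −0.19 and −0.26 (TMM and DESeq2) for vEC against capilEC, 0.19 and 0.20 for aEC against vEC, −0.13 and −0.18 for CP-EC against capilEC, 0.17 and 0.16 for aSMC against PC, −0.11 and −0.16 for vSMC against aSMC, and 0.30 and 0.27 for MG against the endothelial mean. Of all genes at least 4-fold apart between vEC and capilEC, 58.3% were higher in vEC, against 43.8% with TMM and 40.9% with DESeq2 factors. Between aEC and vEC, 53.0% were higher in aEC, against 63.6% with either. Depth limits Vegfa: in aSMC and vSMC, 0 reads allow up to 0.258 and 0.477 CPM.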

Other observations

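One CP-EC cell, singled out after its values were seen, held 71.6% of the Angpt2 reads of its label and all of the Apln, Adm and Vegfb reads. Angpt2 encodes an antagonist of the Tek receptor, and Apln and Adm encode secreted vascular peptides. In this cell of 470092 reads, Angpt2 stood at 2746 CPM, Esm1 at 1723, Apln at 1600, Adm at 779 and Vegfb at 538. Its Kdr level of 2034 CPM was the median of the label, whereas Nrp1 was 253 CPM against a median of 1368, and Plvap, a diaphragm protein of fenestrated vessels, had 0 reads where 15 of 17 cells held some. Over all 17 cells Angpt2 was read in 8.

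Kdr and Nrp1 reads fell in the same capilEC cell about as often as the product of their separate shares: after thinning, 55.4% of cells held both, against a product of 53.2%. In vEC, 53.3% of cells held both neuropilins, against a product of 47.3%. Both are descriptions of cells from 1 deposited sample each.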
